A study of Mus musculus with 28 samples.

Results

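Expression of 8 genes of hepatic glucose metabolism was compared between livers of mice that expressed human APOBEC3B (A3B), a DNA cytosine deaminase, and livers of control mice. The rule takes these genes by name, for their roles in the liver: Pklr, Khk, Slc2a2, Pcx, Pck1, Fbp1, G6pc and Ppargc1a. They are 8 of the 35928 gene symbols summed in the larger set of livers (set 2) and 8 of the 24823 genes used in the smaller one (set 1). All 8 passed the filters on low values in both sets.

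The whole series holds 28 bulk RNA-seq libraries from liver, pancreas and lung, of which 14 are livers. A3B mice carried a tetracycline-inducible A3B-tGFP transgene in the ColA1 locus, from 1 embryonic stem cell line, together with CAGs-rtTA3, a driver active in many adult tissues, so A3B was not limited to hepatocytes. Mice were put on a 625 ppm doxycycline diet when they were 4 weeks old. Set 2 had 6 A3B livers (mice 44, 48, 49, 125, 137 and 153; genotype A3B + CAGS-rtTA) and 2 control livers (mice 45 and 168; genotype A3B, without the driver), all labelled with 10 days of treatment. Set 1 had 3 A3B livers (mice 23 and 28 with 14 days and mouse 70 with 10 days; genotype A3B + CAGS-rtTA) and 3 control livers (mice 11, 91 and 92, labelled with 15 days). Of these controls, mice 91 and 92 had the genotype A3B, while control 11 is labelled with both transgenes. The labels give doxycycline for the set 1 control livers but the study's own list of mice gives none, so the diet and the transgene cannot be told apart there. By the labels, time of treatment and group cannot be told apart in the set 1 livers either. For the set 2 controls the labels and that list both give 10 days, but elsewhere the study describes its control livers and pancreases as without doxycycline, so the same doubt holds for set 2. The study's methods state that control littermates were given doxycycline, without naming a set. Each liver is a different mouse.

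In set 1, where the human transcript was quantified, its level was 1705, 705 and 1585 TPM (a level scaled for transcript length and for the total of the library) in A3B livers 23, 28 and 70, and 0.144, 0.143 and 0.0928 TPM in control livers 11, 91 and 92. The level in control 11, whose label gives both transgenes, was thus near that of control 91. In set 2 only mouse transcripts were quantified. Estimated counts summed to between 65161064 and 118976013 per liver in set 2, and the depth of set 1 is unknown. Levels in the sets were computed differently, and differences were tested within each set or with the set as a term. A3B livers 48, 49 and 28 stood apart. In liver 48, mitochondrially encoded genes held 29.5% of the TPM and in liver 49 they held 15.7%, against 5.11% to 8.8% in the other 6 livers of set 2. The summed level of 10 hepatocyte markers, Alb among them, was lowest in liver 49 in set 2 and in liver 28 in set 1. Calls that changed without all 3 of these libraries are given both ways. In set 1 the markers Alb and Ass1 stood far below their level in set 2, with Alb at 986 to 2037 TPM against 19353 to 107806 TPM and Ass1 under 1 TPM in all 6 livers.

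The liver keeps blood glucose steady by switching between opposite fluxes. After a meal it takes up glucose and fructose and breaks them down through glycolysis, whose last step is run by pyruvate kinase. During fasting, glucagon and glucocorticoids raise gluconeogenesis, which rebuilds glucose from lactate, amino acids and glycerol by way of enzymes that bypass the irreversible steps of glycolysis, while insulin and glucose, acting through the transcription factors SREBP-1c and ChREBP, raise the glycolytic and fructolytic genes.

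Promoter sequence is shown for 4 of the genes, the 2 that were lower in A3B livers and the 2 gluconeogenic genes whose start-site elements are best known, to show which common regulatory letters their first bases hold. The sequences are from RefSeq windows on GRCm38.p6, 250 bases before each gene's start, ended at the first base of any annotated transcript. They run 5′ to 3′ on the gene's strand, and capitals mark matches to the searched motifs. All 8 genes matched an entry. Pklr has 2 starts in that table, and the second is shown, up to the first base of Pklr-202, the main transcript in these livers.
Pck1, chr2:173152823-173153047, plus strand: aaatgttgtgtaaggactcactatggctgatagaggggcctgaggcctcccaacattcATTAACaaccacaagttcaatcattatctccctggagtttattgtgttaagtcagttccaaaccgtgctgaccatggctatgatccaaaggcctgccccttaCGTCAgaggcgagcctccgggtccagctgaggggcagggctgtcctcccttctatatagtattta
G6pc, chr11:101367466-101367560, plus strand: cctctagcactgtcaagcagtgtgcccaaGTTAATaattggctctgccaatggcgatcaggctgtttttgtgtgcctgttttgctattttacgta
Pklr, chr3:89136373-89136571, plus strand: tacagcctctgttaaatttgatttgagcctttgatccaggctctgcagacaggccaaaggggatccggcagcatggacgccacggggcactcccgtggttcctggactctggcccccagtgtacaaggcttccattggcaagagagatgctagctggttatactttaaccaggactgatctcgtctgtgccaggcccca
Fbp1, chr13:62888283-62888532, minus strand: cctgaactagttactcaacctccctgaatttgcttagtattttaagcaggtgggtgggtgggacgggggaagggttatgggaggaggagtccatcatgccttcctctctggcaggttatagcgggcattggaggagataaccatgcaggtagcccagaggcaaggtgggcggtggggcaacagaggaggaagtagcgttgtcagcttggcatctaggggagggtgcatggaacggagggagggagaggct

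Motifs were searched on both strands in the full window of 300 bases, which ends 50 bases after the start. TGACG, the core of a cAMP response element, was in the windows of Pck1, Khk and Ppargc1a and in 20.8% of all 32851 windows. In Pck1 it began 90 bases before the start on the opposite strand, and it is the second capital run printed above. GTTAAT, part of an HNF1 site, was in Pck1, G6pc and Khk and in 7.1% of windows. CACGTG, an E-box, was in Pcx and Khk (7.15% of windows), and in Khk its letters overlapped those of the TGACG match. TATAAA was in Pklr and G6pc (13.6% of windows), 31 and 29 bases before the start and past the end of the printed runs. The full element TGACGTCA (1.79% of windows), TGTTTAC (a forkhead site, 3.65%), TTGCGCAA (a C/EBP site, 0.183%) and CAAAGTCCA (an HNF4 site, 0.475%) were in no window of the 8 genes. The printed stretches of Pklr and Fbp1 held none of the exact letters searched. A search for exact letters misses sites that differ from them at any base. These stretches may therefore still hold sites of the same factors. The RefSeq window of Ppargc1a, which is not shown, lies at a start that these livers barely used: the 3 transcripts that made up nearly all of its level began 13803 to 13854 bases downstream, and the 2 that begin at the RefSeq start did not exceed 0.288 TPM in any liver of set 2.

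Pklr, Fbp1 and Ppargc1a, 3 of the 8 genes, differed between A3B and control livers, and they are not all on the same side of the pathway. Pklr, the glycolytic pyruvate kinase of the liver, and Fbp1, the fructose-1,6-bisphosphatase of gluconeogenesis, were lower in A3B livers, and Ppargc1a, which encodes a coactivator that raises gluconeogenic and mitochondrial genes, was higher. In set 2 (edgeR, 6 against 2 livers) Pklr fell by 2.51 (SE 0.447, adjusted p = 0.0205) and Fbp1 by 1.77 (SE 0.418, adjusted p = 0.0487) on the log2 scale, and Ppargc1a rose by 2.85 (SE 0.611, adjusted p = 0.0373). These were 2 calls of 8 in the lower direction, in which 2.41% of the 17376 genes tested were called, and 1 of 8 in the higher direction, in which 1.25% were called. In set 1 (limma on log2(TPM + 1), 3 against 3 livers) the differences of these 3 genes had the same signs, but none of the 8 passed at an adjusted p of 0.05 (2 were under 0.05 unadjusted, as 32.6% of all genes were), whereas 7.93% of 11495 genes did. In a fit over all 14 livers with the set as a term, which shares its livers with the other tests, Pklr, Fbp1 and Ppargc1a passed and the other 5 genes did not. There 8.42% of 10150 genes were called lower and 30.6% higher, and the median gene stood 0.38 higher in A3B livers on the log2(TPM + 1) scale, so a rise has to be read against that shift. In this bulk tissue, fewer cells of a type and less RNA per cell cannot be told apart.

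**Figure D1:**
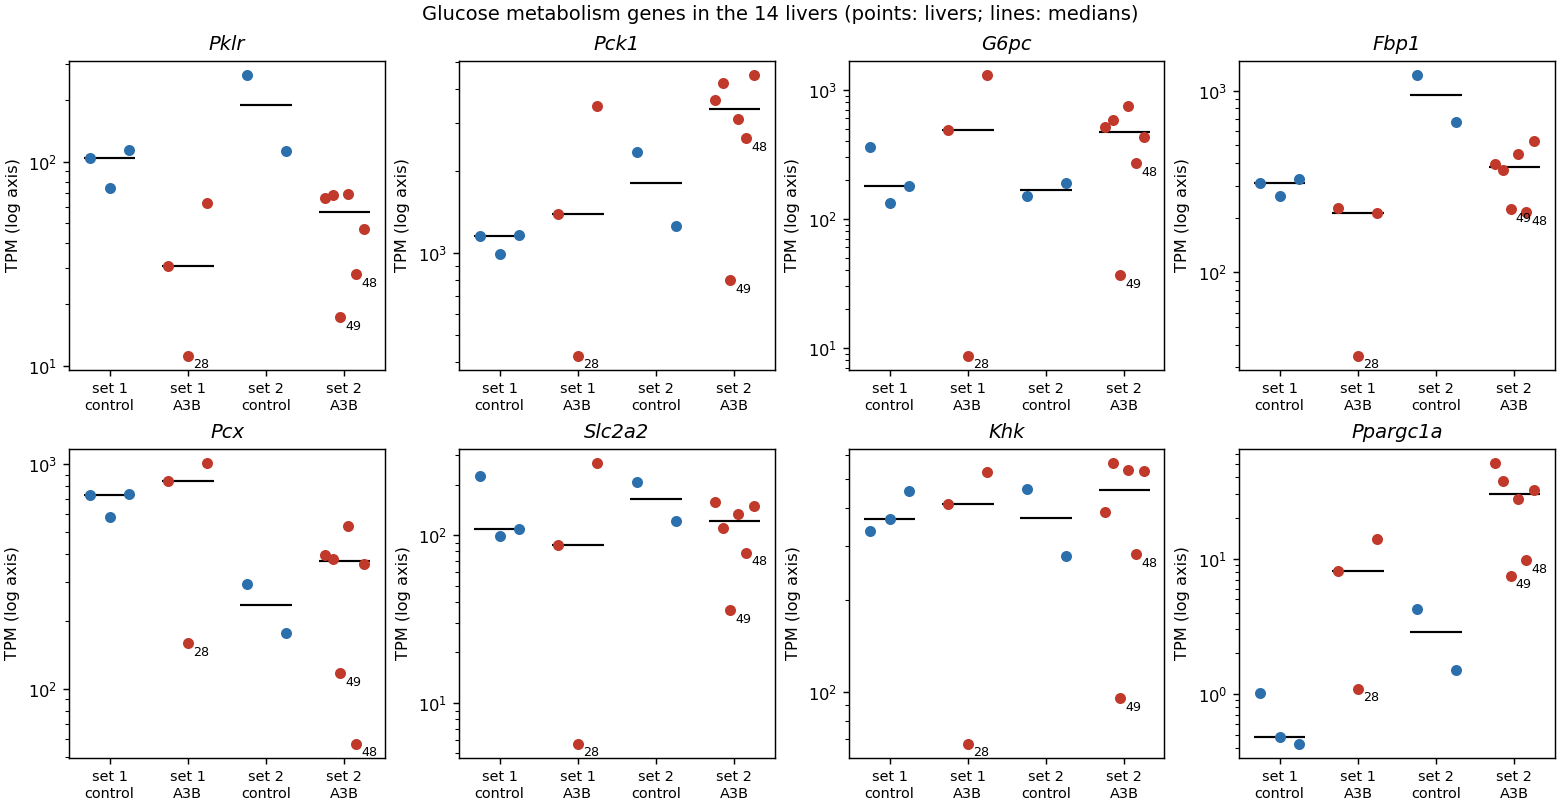
TPM on a log axis of the 8 genes in each of the 14 livers, by set and group, with a line at each group's median and A3B livers 28, 48 and 49 marked by number. Every A3B point lies below every control of its set for Pklr and Fbp1 and above for Ppargc1a, while in the other panels the lowest A3B liver is 28 in set 1 and 49 in set 2, or 48 for Pcx.

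**Figure D2:**
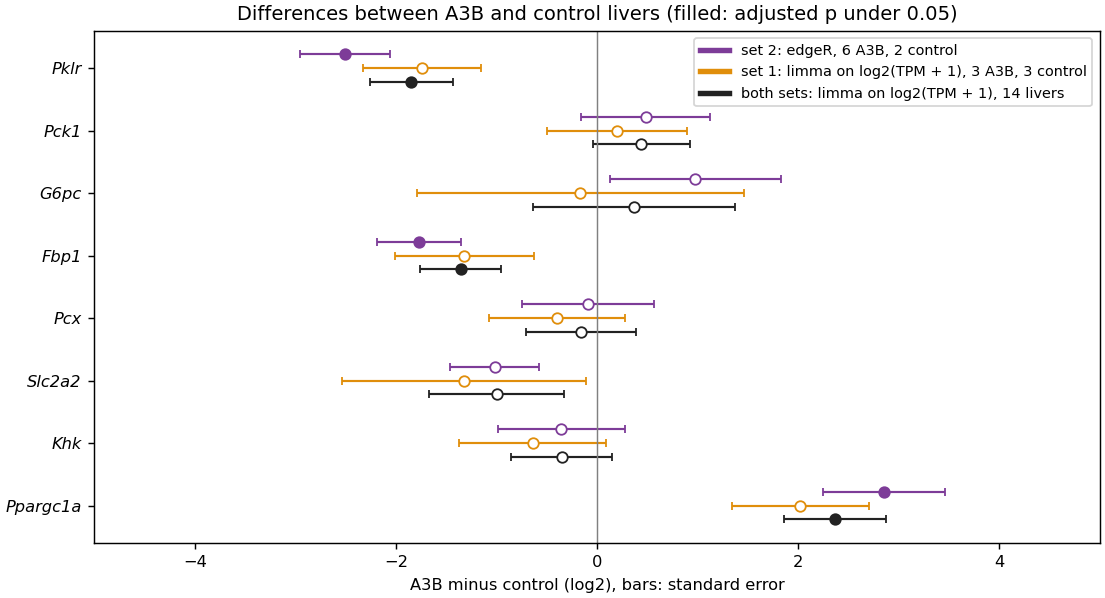
Log2 difference between A3B and control livers for each gene, with its standard error, in set 2, in set 1 and over both sets, filled where the adjusted p was under 0.05. Pklr and Fbp1 lie to the left and Ppargc1a to the right in all 3 tests, and the bars of Pck1, Pcx and Khk cross 0 in all 3.

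Among Pklr, Khk and Slc2a2, which serve the uptake and breakdown of sugar, Pklr was the only one that passed in set 2 or over both sets. It encodes the L and R forms of pyruvate kinase from alternative first exons (chr3:89136142-89146784, plus strand). In set 2 its level was 266 and 113 TPM in control livers 45 and 168. The 6 A3B livers ranged from 17.3 TPM (liver 49) through a median of 56.5 to 69.3 TPM. In set 1 it was 104, 74.2 and 114 TPM in controls 11, 91 and 92 and 30.7, 11.2 and 62.5 TPM in A3B livers 23, 28 and 70. All 9 A3B livers thus lay below every control of their set, a pattern that 5.42% of genes tested showed in set 2 and 10.3% in set 1. Over both sets the difference was -1.85 (SE 0.414, 95% interval -2.72 to -0.97, adjusted p = 0.00309). It passed in all 18 alternatives to that fit, with adjusted p between 0.00114 and 0.0184, and was -1.30 without A3B livers 48, 49 and 28. In set 2 alone the call was lost without control 45 (-1.84, adjusted p = 0.225), without A3B liver 137 (-2.59, adjusted p = 0.0507) and with limma on TPM (-1.95, adjusted p = 0.0629), and the difference ranged from -3.08 (without control 168) to -1.84 when single livers were left out. In set 1 alone it was -1.74 (SE 0.585, adjusted p = 0.0938) and passed only without A3B liver 70 (-2.30, adjusted p = 0.0376).

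Khk, ketohexokinase, which commits fructose to breakdown (chr5:30921431-30931248, plus strand), did not pass in any of the 3 tests. Its level in set 2 was 461 and 279 TPM in controls 45 and 168 and ran from 94.9 (liver 49) through a median of 459 to 562 TPM in A3B livers. The values in set 1 were 336, 369 and 454 TPM in controls 11, 91 and 92 and 413, 67.4 and 527 TPM in A3B livers 23, 28 and 70. The groups overlapped in both sets, and the difference over both was -0.35 (SE 0.502, 95% interval -1.42 to 0.72, adjusted p = 0.6).

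Slc2a2 encodes GLUT2, the bidirectional glucose carrier of hepatocytes (chr3:28697903-28731359, plus strand). It measured 208 and 121 TPM in control livers 45 and 168, and 35.6 (liver 49), 122 (median) and 157 TPM (highest) in the A3B livers of set 2. In set 1 the controls 11, 91 and 92 had 227, 99.2 and 109 TPM and the A3B livers 23, 28 and 70 had 87.3, 5.71 and 269 TPM. Both groups overlapped in each set. The difference over both sets was -0.996 (SE 0.672, 95% interval -2.43 to 0.44, adjusted p = 0.252), and in set 2 it was -1.02 (SE 0.443, adjusted p = 0.206). Over both sets it was -0.29 without A3B liver 28 and -1.47 without A3B liver 70.

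Of the 4 gluconeogenic enzymes, Fbp1 passed in set 2 and over both sets, and it was lower, while Pck1, G6pc and Pcx passed only in alternatives given below. Fbp1 removes the phosphate that phosphofructokinase adds (chr13:62864753-62888282, minus strand). Its level in set 2 was 1219 and 669 TPM in controls 45 and 168, against 215 (liver 48), 381 (median) and 527 TPM (liver 153) in A3B livers. The values in set 1 were 309, 264 and 327 TPM in controls 11, 91 and 92 and 226, 34.8 and 211 TPM in A3B livers 23, 28 and 70. Again all 9 A3B livers were below every control of their set. Over both sets the difference was -1.36 (SE 0.403, 95% interval -2.21 to -0.50, adjusted p = 0.0154), and -0.78 without livers 48, 49 and 28 (adjusted p = 0.00828). Without control 45 it was -1.19 and no longer passed (adjusted p = 0.0614). The set 2 call lay close to the threshold. It was lost without either control (adjusted p = 0.364 without 45 and 0.193 without 168), without A3B liver 44, 125, 137 or 153 (between 0.0515 and 0.0999), with total-count scaling (0.0576), with no filter on low counts (0.0502) and with limma on TPM (0.0895). When counts were scaled to the hepatocyte markers it was -0.48 in set 2 (adjusted p = 0.291) and -0.52 over both sets (adjusted p = 0.123).

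Pck1, cytosolic phosphoenolpyruvate carboxykinase, which makes phosphoenolpyruvate from oxaloacetate (chr2:173153048-173159273, plus strand), had the highest level of the 8 genes in every liver. It measured 2353 and 1253 TPM in controls 45 and 168. In A3B livers of set 2 it ran from 795 (liver 49) through a median of 3368 to 4478 TPM (liver 153), above both controls in 5 of 6. In set 1 controls 11, 91 and 92 had 1158, 994 and 1169 TPM and A3B livers 23, 28 and 70 had 1389, 422 and 3457 TPM, above all controls in 2 of 3. The A3B values spread over more than the distance between the group medians, and the difference over both sets was 0.44 (SE 0.486, 95% interval -0.59 to 1.47, adjusted p = 0.487). Without livers 48, 49 and 28 it was 1.07 (adjusted p = 0.00408). Livers 28 and 49 had the lowest Pck1 of their sets, so leaving them out raises the difference. Scaled to hepatocyte markers, the difference was 1.70 in set 2 (adjusted p = 0.0351) and 1.29 over both sets (adjusted p = 0.00336).

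G6pc, the catalytic subunit of glucose-6-phosphatase, which frees glucose for export (chr11:101367561-101377903, plus strand), followed the same livers. In set 2 it measured 149 and 188 TPM in controls 45 and 168, and 36.5 (liver 49), 470 (median) and 752 TPM (liver 125) in A3B livers, above both controls in 5 of 6. In set 1 controls 11, 91 and 92 had 358, 133 and 180 TPM and A3B livers 23, 28 and 70 had 488, 8.71 and 1298 TPM. Liver 28 and liver 70 thus differed more from each other than either did from the controls. The difference was 0.98 in set 2 (SE 0.85, adjusted p = 0.521), -0.17 in set 1 (SE 1.63, adjusted p = 0.952) and 0.37 over both (SE 1.01, 95% interval -1.78 to 2.53, adjusted p = 0.791). Without livers 48, 49 and 28 it was 1.84 over both sets (adjusted p = 0.000427). These 3 livers were set aside after the data were seen, for their mitochondrial share or their cell type markers, and livers 28 and 49 also had the lowest G6pc of their sets. The share of all genes called without these 3 livers is not given, so calls in that fit lack a background.

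Pcx, pyruvate carboxylase, the mitochondrial enzyme that supplies oxaloacetate (chr19:4510472-4621752, plus strand), was 293 and 178 TPM in controls 45 and 168. The A3B livers of set 2 had 57.1 (liver 48), 370 (median) and 531 TPM (liver 125). The values in set 1 were 732, 583 and 738 TPM in controls 11, 91 and 92 and 844, 160 and 1011 TPM in A3B livers 23, 28 and 70. The groups overlapped, with a difference over both sets of -0.16 (SE 0.544, 95% interval -1.32 to 0.995, adjusted p = 0.834). Its sign turned with the livers kept, from -0.16 to 0.66 (adjusted p = 0.0153) without 48, 49 and 28. Livers 28 and 48 had the lowest Pcx of their sets, so leaving them out raises the difference.

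Ppargc1a (PGC-1α, chr5:51454250-51567726, minus strand) showed the largest difference of the 8 genes, with no allowance made for the upward shift of all genes. It measured 4.24 and 1.49 TPM in control livers 45 and 168. In the A3B livers of set 2 it was 7.49 (liver 49), 29.9 (median) and 50.9 TPM (liver 44). In set 1 it was 1.02, 0.477 and 0.428 TPM in controls 11, 91 and 92 and 8.12, 1.09 and 14 TPM in A3B livers 23, 28 and 70. All 9 A3B livers lay above every control of their set, liver 28 by the least. Complete separation upwards was common in these data, in 24.3% of genes in set 2 and 28.5% in set 1, and 21.8% of 10150 genes separated the groups in both sets in the same direction, as Pklr, Fbp1 and Ppargc1a did. The difference over both sets was 2.37 (SE 0.508, 95% interval 1.29 to 3.44, adjusted p = 0.00244), against the median of 0.38 over all genes. It passed in all 18 alternatives, with adjusted p between 6.78e-06 and 0.0155. In set 1 alone it was 2.02 (SE 0.683, adjusted p = 0.0948) and 2.85 without liver 28 (adjusted p = 0.0133). In set 2 the call was lost without A3B liver 44, 125, 137 or 153 (adjusted p between 0.0553 and 0.0762), without control 45 (0.163) or 168 (0.333) and with the expression of Y-chromosome genes as a covariate (0.0603).

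An exact permutation of the groups within each set gave Pklr, Fbp1 and Ppargc1a the smallest p that 560 arrangements allow, 0.00179 (adjusted p = 0.0115 over all genes). No gene had an A3B effect that differed between the sets (limma, interaction term, 0 of 10150 genes or 0%, with 234 at an unadjusted p under 0.05, and 0 in each of the 17 alternatives). For Pklr that difference of effects had a 95% interval of -2.04 to 1.61 and for Ppargc1a of -1.53 to 2.91, so effects that differ by several-fold could not be detected.

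Ratios of genes within the same liver do not depend on how the library was scaled, and the ratio of Pck1, which makes phosphoenolpyruvate, to Pklr, which consumes it, separated the groups in both sets. Pck1 was 8.86-fold and 11.1-fold the level of Pklr in control livers 45 and 168 and 11.1-fold, 13.4-fold and 10.2-fold in controls 11, 91 and 92. In A3B livers the ratio was 54.7, 60.7, 46, 44.8, 94.1 and 96 in mice 44, 137, 49, 125, 48 and 153, and 45.2, 37.8 and 55.3 in mice 23, 28 and 70. The lowest A3B ratio, in liver 28, was above the highest control ratio, in control 91, although livers 28 and 49 had less Pck1 RNA than any control of their sets. Since Pklr alone also separated the groups, part of this is already in its own values. Khk to Fbp1 also separated the groups, at 0.378 and 0.417 in controls 45 and 168 against 0.428 to 1.53 in the A3B livers of set 2, and at 1.09 to 1.4 in the controls of set 1 against 1.83 to 2.5. Pck1 to G6pc did not: it was 6.68 and 15.8 in the controls of set 2 and 4.13 to 21.8 in A3B livers, with 48.5 in liver 28 of set 1. Of the 28 pairs of the 8 genes, 14 separated the groups in both sets on the log2(TPM + 1) scale, 7 of them pairs with Ppargc1a, and 19.5% of all 51506175 gene pairs did. The pairs shown here were chosen after their values were seen, and no test was made of them.

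**Figure D3:**
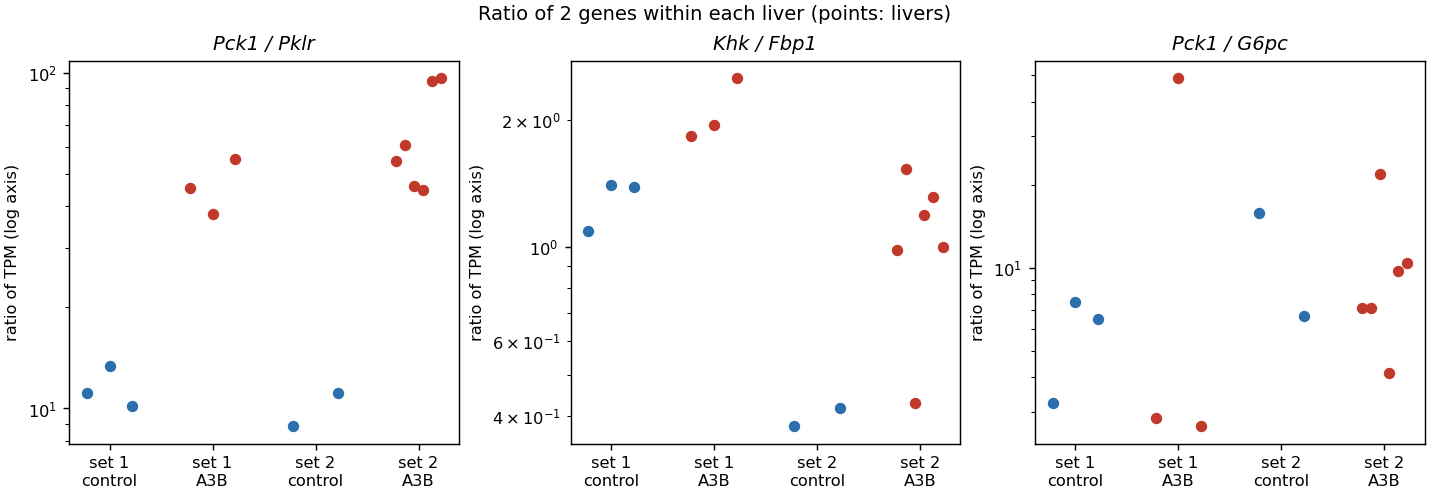
Ratio of the TPM of 2 genes within each of the 14 livers, on a log axis, by set and group. The Pck1 to Pklr ratio lies between 8.86 and 13.4 in the 5 controls and between 37.8 and 96 in the 9 A3B livers, while the Pck1 to G6pc ratio overlaps.

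The other genes of the pathways, 136 in 8 lists, were counted beside all genes. In set 2, where all 136 were tested, edgeR called 3 higher and 8 lower, beside 1.25% and 2.41% of all genes, with a median difference of -0.08 against 0.21 over all genes. In set 1, limma called 6 of 129 higher and 4 lower, beside 7.93% of all genes in either direction. Over both sets, by limma, 26 of 128 were higher and 16 lower, beside 30.6% and 8.42% of all genes, with a median of 0.17 against 0.38. Counts of a list in set 2 are those of edgeR, and they were lower than the counts of DESeq2 in 7 of the 8 lists. Over all genes of set 2, DESeq2 called 13.1%, limma on TPM called 6.02%, and 22.9% were under an unadjusted p of 0.05 by edgeR, and the list counts by those rules below are to be read against these shares. Of the regulators of glucose genes, 9 of 23 were higher and 3 lower over both sets, and in set 2 edgeR called Srebf1 and Mlxipl of 24, both lower (DESeq2 called 3, and 6 were under 0.05 unadjusted). Srebf1, which encodes the insulin-responsive factor SREBP-1, measured 69.4 to 225 TPM in the 2 controls and 8.71 to 26.8 TPM in A3B livers of set 2 (difference -3.65, SE 0.382, adjusted p = 0.00389), and 38.1 to 64.1 against 6.47 to 14.8 TPM in set 1 (difference -2.20, SE 0.38, adjusted p = 0.0267). Mlxipl, which encodes the glucose-sensing factor ChREBP, a known activator of Pklr, measured 92.9 to 174 TPM in the controls and 14.9 to 75.5 TPM in A3B livers of set 2 (difference -2.11, SE 0.479, adjusted p = 0.0438). In set 1 it was 92.1 to 286 against 58 to 71.2 TPM and missed the threshold (difference -1.23, SE 0.441, adjusted p = 0.108). It passed over both sets (-1.50, SE 0.353, adjusted p = 0.00428).

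In the pyruvate handling list, with a median of -0.25 in set 2 and 0.09 over both sets, edgeR called 1 of 15 genes in set 2 (DESeq2 called 5, and 7 were under 0.05 unadjusted). This was Pdk4, pyruvate dehydrogenase kinase 4, which blocks the entry of pyruvate into the citrate cycle and is known as a fasting gene. It was 0.707 to 2.26 TPM in the controls and 19.4 to 167 TPM in the A3B livers of set 2, a difference of 5.47 (SE 1.02, adjusted p = 0.0242). In set 1 it was 0.484 to 11.3 against 49.5 to 180 TPM (difference 4.67, SE 0.875, adjusted p = 0.0327). In the glycolysis list 1 of 16 was higher in set 2 (6 were under 0.05 unadjusted, and DESeq2 called 3). That gene, Slc2a1, encodes GLUT1, a glucose carrier that hepatocytes normally hold at a low level, and it measured 4.06 to 4.4 TPM in controls and 13.8 to 26.8 TPM in A3B livers (difference 1.65, SE 0.267, adjusted p = 0.0146). In set 1 it missed the threshold (1.77, SE 0.544, adjusted p = 0.0778). Over both sets 4 of 15 glycolysis genes were higher and 1 lower, which is near the 30.6% and 8.42% of all genes.

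Fructose and galactose use was the pathway list with the lowest median, -0.87 in set 2 and -0.79 over both sets, beside -0.56 and -0.9 for the hepatocyte markers. In set 2 edgeR called 2 of 12 genes, both lower, beside 2.41% of all genes (DESeq2 called 5, and 5 were under 0.05 unadjusted). Over both sets, 5 of 11 were lower, beside 8.42% of all genes, and the other 6 did not pass. Sord, sorbitol dehydrogenase, which makes fructose from sorbitol, fell from 683 to 1029 TPM in the controls to 76.7 to 186 TPM in A3B livers of set 2 (difference -3.26, SE 0.39, adjusted p = 0.00514), and from 49.6 to 69.9 TPM to 3.36 to 20.7 TPM in set 1 (difference -2.57, SE 0.564, adjusted p = 0.0412). Slc2a8, which encodes the sugar carrier GLUT8, fell by 1.28 in set 2 (SE 0.275, adjusted p = 0.0377) and missed the threshold in set 1 (-0.97, SE 0.275, adjusted p = 0.0663).

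In the gluconeogenesis list, edgeR called 1 of 21 genes in set 2, Slc25a1 (DESeq2 called 3, and 5 were under 0.05 unadjusted). Slc25a1 encodes the mitochondrial citrate carrier, which feeds cytosolic citrate to fatty acid synthesis. It was 185 to 238 TPM in controls and 45.5 to 109 TPM in A3B livers (difference -1.75, SE 0.26, adjusted p = 0.01), and 317 to 370 against 122 to 125 TPM in set 1 (-1.44, SE 0.264, adjusted p = 0.0303). Over both sets 3 of 20 were higher and 2 lower. In glycogen metabolism 3 of 18 fell in set 2, beside 2.41% of all genes (DESeq2 called 5): Gbe1, the branching enzyme (-1.97, SE 0.292, adjusted p = 0.01), Phkb, a subunit of phosphorylase kinase (-1.47, SE 0.269, adjusted p = 0.0223), and Gaa, the lysosomal glucosidase (-1.29, SE 0.287, adjusted p = 0.0417). By limma none of the 18 passed in set 1, where 5 were under 0.05 unadjusted, beside 32.6% of all genes, and over both sets 3 were higher and 3 lower, beside 30.6% and 8.42% of all genes. Of 8 pentose phosphate genes Rpia, ribose 5-phosphate isomerase, rose by 1.73 in set 2 (SE 0.325, adjusted p = 0.0246) and by 2.33 in set 1 (SE 0.366, adjusted p = 0.0224). Of 22 genes of insulin and glucagon signalling, edgeR called 0 in set 2, DESeq2 2 and limma on TPM 1, with 4 under an unadjusted 0.05 by edgeR, and 4 of 20 were higher and 1 lower over both sets. In set 1 the calls of Sord, Srebf1, Slc25a1, Pdk4 and Rpia were each lost with no filter on low values and without control 91, control 92 or A3B liver 23, with adjusted p up to 0.184, 0.137, 0.354, 0.154 and 0.118 over the 11 alternatives. That of Sord was also lost without control 11, and those of Srebf1 and Slc25a1 with scaling to hepatocyte markers. Sord and Srebf1 kept their set 2 call in all 16 alternatives. The call of Slc2a1 was lost without either control, that of Gbe1 without control 45, that of Slc25a1 without either control or with limma on TPM, that of Rpia without A3B liver 44 or 137 or either control, and that of Pdk4 without either control or A3B liver 44. The calls of Phkb, Slc2a8, Gaa and Mlxipl held in 9, 8, 8 and 8 of 16. Scaled to hepatocyte markers, Slc2a8 was at 0.033 and Gaa at 0.028, and Slc25a1, Gbe1, Phkb and Mlxipl no longer passed, in set 2 or over both sets.

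**Figure D4:**
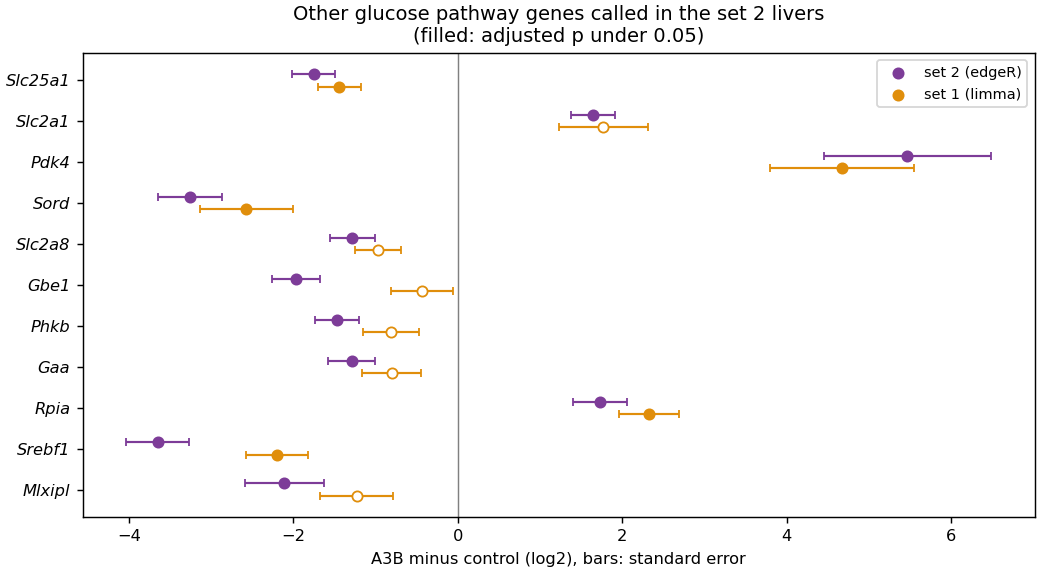
Log2 difference between A3B and control livers, with its standard error, of the 11 other pathway genes named by rule, in set 2 and set 1, filled where the adjusted p was under 0.05. All 11 points of set 1 lie on the same side of 0 as those of set 2, and Pdk4 lies farthest to the right at 5.47 and 4.67.

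At the level of transcripts, 0.162% of 60653 tested in set 2 were called, and 1 of the 22 transcripts of the 8 genes that held at least 10% of a gene's TPM in a liver was among them. This was Pklr-202, whose first base, 89136572 on chromosome 3, follows the last base of the Pklr sequence printed above. The RefSeq start of that window is 89136623, so the TATAAA counted from it lies inside Pklr-202. It was 184 and 73.8 TPM in controls 45 and 168, and 34, 29.6, 12.6, 27.3, 22.9 and 26.7 TPM in A3B livers 44, 137, 49, 125, 48 and 153 (difference -2.88, SE 0.382, adjusted p = 0.0402). The call was lost in 8 of 9 alternatives, with adjusted p up to 0.357 without control 45. Pklr-201, from the upstream exon, held 17.3% and 5.4% of the gene's TPM in the controls and 0.253% to 24% in A3B livers. Ppargc1a was made up of Ppargc1a-201, Ppargc1a-203 and Ppargc1a-205. In 7 of the 8 livers Ppargc1a-201, annotated for nonsense-mediated decay, held 32.1% to 54.5%, and in liver 48 it held 2.83% while Ppargc1a-203 held 95.8%. Liver 48 stood apart in other genes too. The retained-intron transcript Khk-202 held 65.5% of Khk TPM there against 7.47% to 14% elsewhere, Slc2a2-203, also a retained intron, held 68.1% against 7.33% to 16.9%, and the short Fbp1-203 held 38.5% against at most 0.436%. A read that fits several transcripts is divided between them by kallisto, so these shares are estimates. G6pc had 1 transcript, and Pck1-201 held 91.8% to 98% of Pck1 in every liver.

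**Figure D5:**
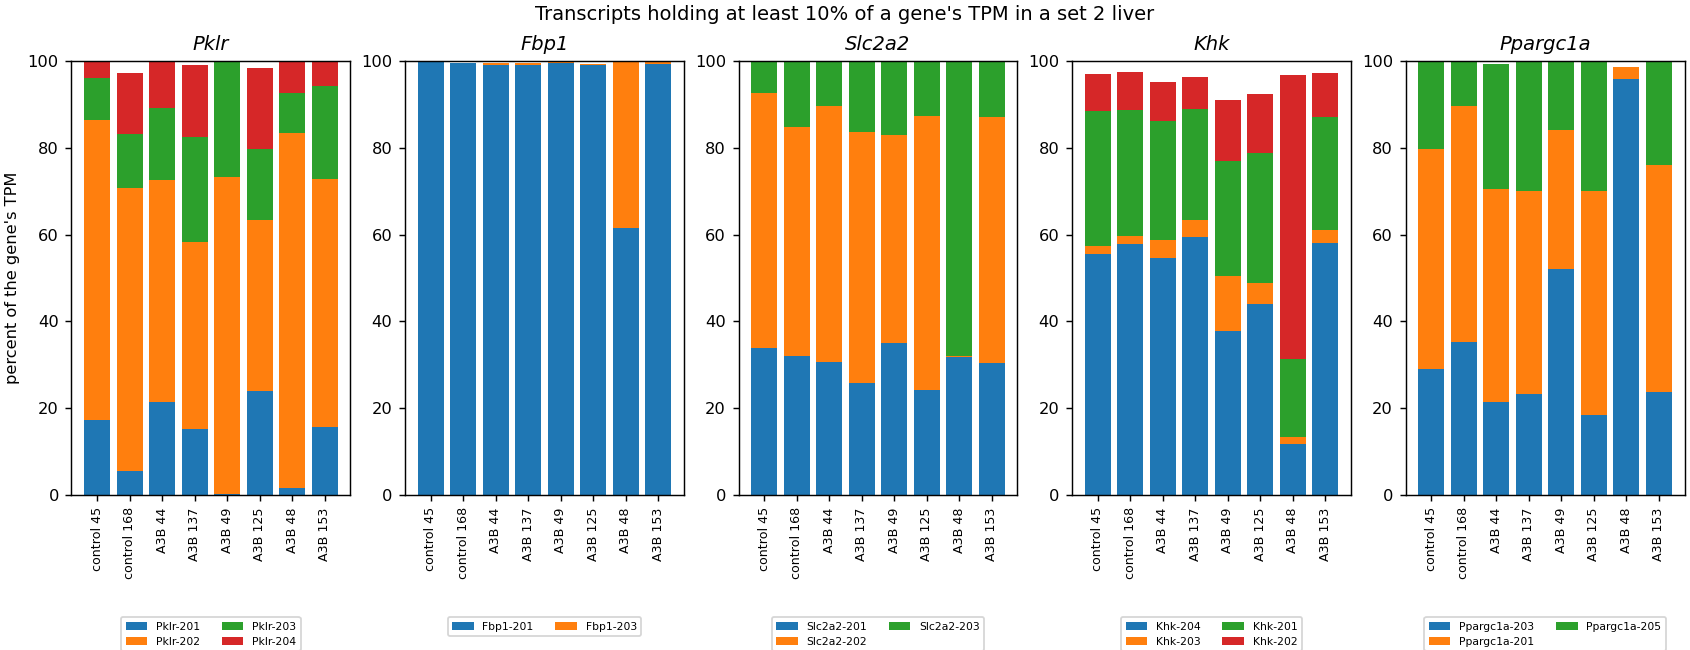
Percent of a gene's TPM held by each transcript with at least 10% in any of the 8 livers of set 2, for 5 of the genes; the remainder up to 100% is in transcripts under that share. A3B liver 48 differs from the other 7 livers in Fbp1, Slc2a2, Khk and Ppargc1a.

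Markers of cell types were read beside these values. The summed TPM of the hepatocyte markers was 113420 and 171426 in the controls of set 2 and 41475 to 115401 in A3B livers, and 7944 to 9148 against 2740 to 6397 in set 1. Of the 10 markers edgeR called 1 lower in set 2, beside 2.41% of all genes. DESeq2 called 5 in all there, beside 13.1% of all genes. By edgeR 5 were under 0.05 unadjusted, beside 22.9%. Over both sets 4 of 9 were lower and 1 higher, beside 8.42% and 30.6% of all genes. When values were scaled to this list, Pklr passed in set 2 (-1.19, adjusted p = 0.0406) and over both sets (-1.02, adjusted p = 0.00804) and missed the threshold in set 1 (-0.90, adjusted p = 0.198), as it did without the scaling. Fbp1 passed in none of these fits. Ppargc1a passed in set 2 (4.15, adjusted p = 0.0116), in set 1 (2.44, adjusted p = 0.0331) and over both sets (2.89, adjusted p = 5.2e-05), and Pck1 in set 2 and over both sets. This scaling raises all genes relative to the markers: over both sets 6497 genes were then called higher and 233 lower, against 3107 and 855. The summed TPM of 11 Kupffer cell and macrophage markers was 465 and 511 in the controls of set 2 and ran from 42.2 (liver 48) to 1565 (liver 49) in A3B livers. Neutrophil markers summed to 3.06 to 5.64 TPM in the controls of set 2 and 5.61 to 120 TPM in A3B livers, and to 9.51 to 22.5 against 12.2 to 130 TPM in set 1. Adipocyte markers summed to 5.83 to 13.1 TPM in the controls and 7.76 to 89.7 TPM in A3B livers of set 2. In set 1 they summed to 15.1 to 19.3 against 30.6 to 216 TPM. Most of each sum was Fabp4 alone, at 77.3 TPM in A3B liver 49 and 215 TPM in A3B liver 28. Adipoq did not exceed 1.51 TPM in any liver. Pck1 is also expressed in adipocytes. Endothelial markers summed to 192 to 234 TPM against 31.1 to 224 TPM in set 2, stellate cell and fibroblast markers to 98.8 to 177 against 32.7 to 263 TPM, and cholangiocyte markers to 18.9 to 47.9 against 6.48 to 43.8 TPM, with overlap in each. T and NK cell markers were at 4.78 to 6.7 against 4.29 to 28.2 TPM, and B and plasma cell markers at 1.95 to 3.89 against 0.684 to 6.21 TPM. Of other organs, pancreatic acinar markers were at 79.4 to 121 against 6.8 to 560 TPM, islet markers at 0.186 to 0.866 against 0.518 to 7.94 TPM and lung epithelial markers at 1.12 to 13.2 against 4.06 to 40.4 TPM. In set 1 the acinar and islet markers did not overlap between groups, at 54.1 to 121 against 9.82 to 10.4 TPM and at 0.0363 to 0.44 against 3.33 to 6.52 TPM. Most of the acinar difference lay in Cela1, at 52.7 to 120 against 5.37 to 9.59 TPM. Most of the islet difference lay in G6pc2, at 0.0363 to 0.435 against 1.2 to 6.48 TPM. Prss2, Cpa1 and Ins2 did not exceed 0.745 TPM in any liver of set 1. Kidney proximal tubule markers, from the other gluconeogenic organ, did not exceed 0.404 TPM in any liver. The part of the markers of other cell types in the differences above was not tested.

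Levels in pancreas and lung are given without a test. The share of all genes that do not overlap between groups was not computed in these tissues. The pancreases, labelled with 10 days of treatment, were grouped by their titles, because the genotype labels go against the titles for 4 of the 8: A3B mice 44 and 137 are labelled A3B alone, and controls 45 and 168 are labelled A3B + CAGS-rtTA. Lung controls are labelled with 15 days and lung A3B mice (A3B + CAGS-rtTA) with 10 days, so time and group cannot be told apart there. Lung controls 88 and 91 are labelled A3B and control 87 CAGs. In the pancreas Pck1 measured 1.97 and 7.41 TPM in the 2 controls and 2.8 to 41.2 TPM in 6 A3B mice, Pklr 0.535 and 0.592 against 1.48 to 6.13 TPM, and Ppargc1a 0.142 and 0.895 against 0.972 to 2.44 TPM. Alb, made by hepatocytes, was at 1.19 and 32.7 TPM in those controls and at 10.4 to 634 TPM in the A3B pancreases. Khk was 11.7 and 15.6 TPM in control pancreas and 31.2 to 60.1 TPM in A3B pancreas. Fbp1 was 0.338 and 0.699 TPM against 2.45 to 14.7 TPM. The summed markers of 9 of the 13 lists did not overlap between these groups either, and those of T and NK cells, B and plasma cells, neutrophils and adipocytes did. Acinar markers summed to 379683 to 385541 TPM in the controls and 64848 to 173340 TPM in A3B pancreases, macrophage markers to 47.6 to 561 against 1869 to 5585 TPM, and the cholangiocyte list, whose genes mark duct cells, to 55.5 to 107 against 1280 to 3032 TPM. Endothelial markers were at 7.13 to 27.6 against 107 to 194 TPM, stellate cell and fibroblast markers at 40.7 to 186 against 953 to 1458 TPM, islet markers at 3419 to 3493 against 3662 to 13293 TPM, and hepatocyte markers at 57.9 to 107 against 215 to 1340 TPM. Their part in the pancreas values was not tested. In lung, Pck1 was 14.9, 54.5 and 9.96 TPM in controls 87, 88 and 91 and 25.4, 488 and 225 TPM in A3B mice 69, 70 and 74. Ppargc1a there was 0.364 to 0.476 TPM in the controls and 1.33 to 2.73 TPM in A3B mice, without overlap. Khk, at 22.3 to 25.7 against 28.2 to 36.5 TPM, and Pcx, at 53.3 to 80.6 against 81.8 to 163 TPM, did not overlap there either. Endothelial markers in these lungs, at 787 to 976 against 2118 to 2771 TPM, and macrophage markers, at 1301 to 1384 against 1036 to 1212 TPM, did not overlap either, and their part was not tested. G6pc in lung was at most 0.553 TPM in controls 87 and 91 and A3B mouse 69, and 14.8 to 40.4 TPM in control 88 and A3B mice 70 and 74, the 3 lungs in which Alb was 190 to 245 TPM.

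Over the 14 livers, with each set centred on its mean, the genes most like each of the 8 were sought among 4859 genes that averaged 10 TPM or more in set 1 and in set 2. Pck1 was most like Klf15 (Pearson's r = 0.978), a glucocorticoid-responsive regulator of amino acid use, and Slc3a1 (0.959). Slc2a2 was most like Abat (0.985), Khk like Sardh (0.972) and Mthfd1 (0.963), and G6pc like Aass (0.944) and Bhmt (0.94). Pcx was most like Atp5a1 (0.967) and Ivd (0.963), and Ppargc1a was most like Mrps31 (0.975) and Adora1 (0.964). Pklr was most like Glul (0.953) and Ces1c (0.946), and Fbp1 like Pm20d1 (0.965) and Slc38a3 (0.961). Among the 8 genes Pklr and Fbp1 varied together (r = 0.91), as did Pck1 and G6pc (0.9), while Ppargc1a had r = -0.23 with Pklr and -0.14 with Fbp1. Within the 9 A3B livers alone all 28 pairs had r between 0.71 and 0.97, with Ppargc1a and Pklr at 0.95. These correlations describe livers that share libraries and groups, and the low values of livers 28 and 49 enter every pair.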

How the data were processed

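RNA-seq libraries (TruSeq Stranded kit, 100-nucleotide paired-end reads) were prepared from total RNA of snap-frozen tissue. For set 2 the authors deposited, per transcript, the estimated counts and TPM of kallisto. For set 1 the authors deposited TPM per gene, from reads aligned to mm10 with STAR, and the column names show that duplicate reads had been marked or removed, so TPM of the sets are not on a common scale. Duplicate handling can lower abundant genes such as Alb and Pck1. Human A3B was a row of the set 1 table only.

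With GENCODE M21, 116728 of 119414 transcripts (97.8%) were matched to 35928 symbols; estimated counts and TPM were summed per gene, and counts were rounded. Counts without a gene held 0.692% to 1.46% of a liver's total. In set 1, 26 rows with dates in place of names (4 of them repeated) were left out, which left 24823 genes. Set 2 was tested with edgeR 4.0.16 (filterByExpr, TMM, robust quasi-likelihood), set 1 and both sets with limma 3.58.1 (trend, robust) on log2(TPM + 1) of genes that averaged 1 TPM or more, in R 4.3.3. P-values were two-sided and Benjamini-Hochberg adjusted over all features tested, at a threshold of 0.05. Each liver is 1 mouse, and p-values measure the spread between these mice. DESeq2 1.42.0, other scalings and filters, and leaving out each liver were alternatives. Scaling to hepatocyte markers and leaving out livers 48, 49 and 28 were chosen after seeing the data. Each method was run on simulated data with known changes. The simulated counts had less spread than the livers of set 2, so these runs do not measure the error of the methods here.

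The genes named are the 8 genes, up to 3 genes of each of 8 pathway lists with the smallest p among those called in set 2, the 2 genes most correlated with each of the 8 (1 of them is not reported here), and transcripts with at least 10% of a gene's TPM. The 8 genes, the lists and the 13 marker lists were chosen with earlier results of these data known. Figures were drawn with matplotlib 3.10.9.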

Additional observations from a re-analysis of the deposited data

Results flagged for a closer look

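In groups of 4 to 10 samples, a value was listed when its gap to the nearest other, divided by the range of the group, exceeded Dixon's 95% critical value. The A3B livers and A3B pancreases of set 2 gave 52 such groups, and 14 values were listed, where chance gives about 1 in 20. In A3B liver 48, transcript shares stood apart: Pck1-201 held 91.8% of its gene's TPM, Fbp1-201 held 61.4% and Fbp1-203 38.5%, Pcx-202 held 66.7% and Pcx-201 18.5%, Slc2a2-202 held 0.0861% and Slc2a2-203 68.1%, and Khk-202 held 65.5%. The endothelial markers of the same liver summed to 31.1 TPM, below the other A3B livers. In A3B liver 49, T and NK cell markers summed to 28.2 TPM and adipocyte markers to 89.7 TPM, both above the other A3B livers, and Khk-203 held 12.8% of Khk. In the pancreas of A3B mouse 49, Pck1 was at 41.2 TPM and G6pc at 6.73 TPM, both above the other 5 A3B pancreases. The causes were not tested.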

How the results depend on the processing

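Over both sets, Pklr and Ppargc1a kept direction and call in all 18 alternatives, and Fbp1 in 16. The 3962 genes called there (3107 higher, 855 lower) ranged from 2919 to 4692 when single livers were left out and became 6730 (6497 higher, 233 lower) with scaling to hepatocyte markers. The 636 genes called in set 2 (218 higher, 418 lower) became 2351 with DESeq2 (1290 and 1061), 1119 with total-count scaling (878 and 241), 742 with limma on TPM (549 and 193), 3087 without A3B livers 48 and 49, 4488 with scaling to hepatocyte markers (4376 and 112), and 73 to 1596 when single livers were left out, fewest without control 168 (73) or 45 (74). The 98 transcripts became 3 with total-count scaling and 0 to 1025 without single livers, most without liver 48. The 912 genes of set 1 (698 higher, 214 lower) became 746 with upper-quartile scaling (424 and 322), 54 with no filter, 1876 with scaling to hepatocyte markers (1782 and 94) and 1 to 1562 without single livers, fewest without control 91 (1) or 92 (9). Signs turned, all with adjusted p above 0.05 unless given, as follows. In set 2, total-count scaling gave Pcx 0.31 and Khk 0.026, limma on TPM gave Pcx 0.078, leaving out livers 48 and 49 gave Pcx 0.26, and scaling to hepatocyte markers gave Pcx 1.12, Slc2a2 0.23, Khk 0.80, Slc2a8 0.033 and Gaa 0.028. Without single livers Pcx ranged from -0.42 to 0.036. In set 1, upper-quartile scaling gave Pck1 -0.11, and scaling to hepatocyte markers gave G6pc 0.67, Pcx 0.47, Khk 0.22, Gbe1 0.25 and Gaa 0.053. Without single livers of set 1, Pck1 ranged from -0.53 (without 70) to 0.99, G6pc from -1.58 to 1.95, Pcx from -0.88 to 0.44, Slc2a2 from -2.48 to 0.18 and Khk from -1.19 to 0.28, the upper ends of G6pc, Pcx, Slc2a2 and Khk without liver 28. Over both sets, G6pc ranged from -0.20 to 1.37, Pcx from -0.36 to 0.24 and Khk from -0.56 to 0.093, and without livers 48, 49 and 28 Pcx was 0.66 (adjusted p = 0.0153) and Khk 0.38. Scaling to hepatocyte markers over both sets gave Pcx 0.68, Khk 0.49 and Phkb 0.033. The cause of these turns was not tested. No paired analysis was possible because the A3B and control livers come from different mice and share no replicate number. The 2 controls of set 2 limit its precision, and depth is unknown in set 1.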

Other observations

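Among the genes of insulin and glucagon signalling, Igfbp1, a secreted binding protein that insulin is known to repress in the liver, was chosen after its values were seen. It measured 21.1 to 35.7 TPM in the 2 controls and 187 to 3256 TPM in the 6 A3B livers of set 2, a difference of 4.94 that missed the threshold there (SE 1.25, edgeR adjusted p = 0.0589). In set 1 it was 6.87 to 24.6 TPM in controls and 133 to 228 TPM in A3B livers (difference 3.89, SE 0.491, limma adjusted p = 0.0134), and over both sets the difference was 4.27 (SE 0.561, limma adjusted p = 0.000104). Levels did not overlap in either set.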
